A study of Homo sapiens with 3 samples.

Results

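The proteasome probes are the 50 array probes whose annotated gene symbol begins with PSMA, PSMB, PSMC, PSMD, PSME, PSMF or PSMG followed by a digit. They were picked from 24454 gene probes by symbol alone, though this set was chosen with earlier results of these data known. The 50 probes carry 48 symbols of the 17556 gene symbols on the array, of which 47 belong to proteasome subunits, activators, the inhibitor or assembly chaperones. The remaining symbol, PSMC3IP, names a cofactor of meiotic recombination that shares the letters but is no subunit. PSMB8 and PSMB11 have 2 probes each and every other symbol has 1. By the rule for detection given below, 49 of the probes were detected on at least 1 array, and the probe of PSMA8, a testis-specific alpha subunit, was not.

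The samples were 3 cultures of HSC-3, a cell line from a human squamous carcinoma of the tongue. The first was untransfected, the second was transfected with an expression plasmid for GFP (green fluorescent protein), and the third with one for full-length DKK3, a secreted glycoprotein, carrying an HA tag. RNA was taken 24 hours after transfection, and the growth medium held 10% serum. The labels give neither the share of cells that took up plasmid nor the promoter that drove it, and one treatment note also mentions a mouse myoblast line. Each condition was 1 one-colour array with no replicate, so there is no test and no p-value, and every difference describes these RNA samples only.

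The proteasome is the large protease that degrades ubiquitin-tagged proteins in the cytosol and nucleus. Its 20S core is a barrel of outer rings of alpha subunits, which gate the entrance, and inner rings of beta subunits, a few of which cut peptide bonds. The 19S particle caps the barrel. Its non-ATPase subunits bind and strip ubiquitin chains, and its ring of ATPases unfolds the protein and feeds it in. Interferons induce replacement catalytic subunits (PSMB8, PSMB9 and PSMB10) and the PA28 activator (PSME1 and PSME2), and the immunoproteasome assembled from them favours peptides that fit MHC class I molecules. When proteasome activity falls short, the transcription factor NFE2L1 raises the standard subunits together.

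The promoters of the interferon-inducible subunits are shown because interferon control is what sets these subunits apart from the constitutive ones, and their values are read further on beside those of antigen-processing genes. The sequences are RefSeq windows of assembly GRCh38.p14, from 250 bases before to 50 bases after each annotated start, written 5′ to 3′ on the gene's strand. Of the 47 genes 41 had such a window, 49 windows in all. Each window was searched on both strands for GAAANNGAA, the core bound by interferon regulatory factors (IRF), for TTCNNNGAA, the site of STAT dimers, and for TGACNNNGC, the antioxidant response element. Capitals mark the matches. PSMB8 is shown by the one of its windows that holds matches, and TAP1, the peptide transporter gene that faces PSMB9, is added.
PSMB8, chr6:32843998-32844297, minus strand: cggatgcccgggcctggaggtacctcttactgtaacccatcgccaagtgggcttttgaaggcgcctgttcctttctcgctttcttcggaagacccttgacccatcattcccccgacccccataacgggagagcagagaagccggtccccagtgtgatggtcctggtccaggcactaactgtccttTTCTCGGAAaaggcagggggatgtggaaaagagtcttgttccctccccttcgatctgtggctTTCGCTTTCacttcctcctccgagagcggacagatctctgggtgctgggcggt
PSMB9, chr6:32853942-32854241, plus strand: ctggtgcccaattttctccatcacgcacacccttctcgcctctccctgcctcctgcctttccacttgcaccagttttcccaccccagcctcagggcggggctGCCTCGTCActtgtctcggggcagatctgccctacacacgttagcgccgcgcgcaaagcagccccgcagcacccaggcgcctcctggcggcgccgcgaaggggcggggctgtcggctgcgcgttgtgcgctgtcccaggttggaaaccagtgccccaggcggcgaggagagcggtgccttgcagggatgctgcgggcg
PSMB10, chr16:67936801-67937100, minus strand: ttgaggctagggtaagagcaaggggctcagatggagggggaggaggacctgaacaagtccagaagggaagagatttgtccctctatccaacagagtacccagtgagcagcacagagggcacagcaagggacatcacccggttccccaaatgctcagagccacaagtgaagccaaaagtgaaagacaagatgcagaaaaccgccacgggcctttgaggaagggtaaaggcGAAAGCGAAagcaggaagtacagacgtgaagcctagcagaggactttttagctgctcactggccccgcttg
PSME1, chr14:24135944-24136243, plus strand: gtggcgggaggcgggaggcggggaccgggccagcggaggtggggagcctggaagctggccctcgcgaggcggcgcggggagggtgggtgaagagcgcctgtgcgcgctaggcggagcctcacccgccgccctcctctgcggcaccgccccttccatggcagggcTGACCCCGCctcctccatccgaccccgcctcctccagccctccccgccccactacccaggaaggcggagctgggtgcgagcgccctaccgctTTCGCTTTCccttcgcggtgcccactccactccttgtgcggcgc
PSME2, chr14:24146561-24146860, minus strand: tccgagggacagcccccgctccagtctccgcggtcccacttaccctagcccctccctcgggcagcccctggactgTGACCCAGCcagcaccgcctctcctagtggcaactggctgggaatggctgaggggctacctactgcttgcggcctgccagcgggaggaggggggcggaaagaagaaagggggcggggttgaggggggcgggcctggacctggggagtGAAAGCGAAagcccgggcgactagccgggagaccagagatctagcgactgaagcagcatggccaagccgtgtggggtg
TAP1, chr6:32853655-32853954, minus strand: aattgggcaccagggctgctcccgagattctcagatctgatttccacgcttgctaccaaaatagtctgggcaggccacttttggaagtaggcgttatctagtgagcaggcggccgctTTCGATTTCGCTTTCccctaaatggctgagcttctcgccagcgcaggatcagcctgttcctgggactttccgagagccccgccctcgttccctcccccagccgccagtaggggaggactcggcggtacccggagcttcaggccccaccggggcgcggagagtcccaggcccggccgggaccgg
The 4 genes PSMB8, PSMB10, PSME1 and PSME2 carry the same 9 bases, GAAAGCGAA or on the other strand TTCGCTTTC, close to their starts. The first base of the match lies at -3 from the start in PSMB8, -21 in PSMB10, 7 in PSME1 and -28 in PSME2. These exact letters occur in 94 of 35116 RefSeq promoter windows of the same length, or 0.268%. Among the proteasome windows they occur once more, in PSMG4, a chaperone of 20S assembly. The looser letters GAAANNGAA were found in 8 of 49 proteasome windows (16.3%) and in 8.11% of all windows. By gene they were in 4 of the 5 inducible genes and in 4 of the 36 others, namely PSMA4, PSMB4, PSMC2 and PSMG4. The PSMB9 window holds neither the IRF letters nor the STAT letters. PSMB9 and TAP1 lie on opposite strands of chromosome 6 with starts 488 bases apart, and the printed TAP1 window holds 2 overlapping IRF matches, at -133 and -127. The other TAP1 window of RefSeq, not printed, holds no IRF match and the STAT letters TTCTGGGAA at -189. PSMB8 also has the STAT letters TTCTCGGAA at -65. The STAT letters were in 16.3% of the proteasome windows against 7.66% of all, the antioxidant letters in 28.6% against 13.3%, and the letters CCAAT in 40.8% against 34.6%. A match of letters is a description of the window and says nothing about binding in these cells.

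Spot values are the scanner's median intensity per spot. They were background-corrected, quantile-normalized over the 3 arrays and put on a log2 scale, and all differences below are on that log2 scale after normalization, while levels are raw spot intensities. The arrays differed in overall brightness, so a raw value can be lower on an array where the normalized value is not. PSMA1, for example, read 3102 on the untransfected, 3234 on the GFP and 2759 on the DKK3 array, and its normalized DKK3 minus GFP difference was 0.018. Levels of different probes cannot be compared with each other, since each probe binds its target differently. A probe was detected where it exceeded the mean plus 2 SD of the blank spots, a limit of 40.8 on the untransfected, 33.8 on the GFP and 36.6 on the DKK3 array. Across its 24 spots a positive control varied by 5.88% to 6.11% within the arrays, and a second one by 8.82% to 11.9%. For 1464 genes with exactly 2 detected probes, the probes differed from each other by a median of 0.084 in DKK3 minus GFP, 0.095 in GFP minus untransfected and 0.10 in DKK3 minus untransfected. The 95th percentiles of that gap were 0.355, 0.392 and 0.418 in the same order, and serve here as a scale of disagreement between probes. Both probes of a gene come from the same arrays, so differences between cultures, RNA samples or arrays that they share are not in this gap. It was taken over detected genes of any brightness. A difference larger than the gap can therefore still lie within the variation between cultures, which was not measured.

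The sample labels were checked first. The DKK3 probe read 539 on the untransfected, 749 on the GFP and 64328 on the DKK3 array, a normalized DKK3 minus GFP difference of 6.01. All 10 squamous epithelial markers, keratins and desmosomal genes among them, were detected on all 3 arrays. Of 9 leukocyte genes with a probe 7 were detected on every array, and PTPRC, which encodes CD45, on none.

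**Figure D1:**
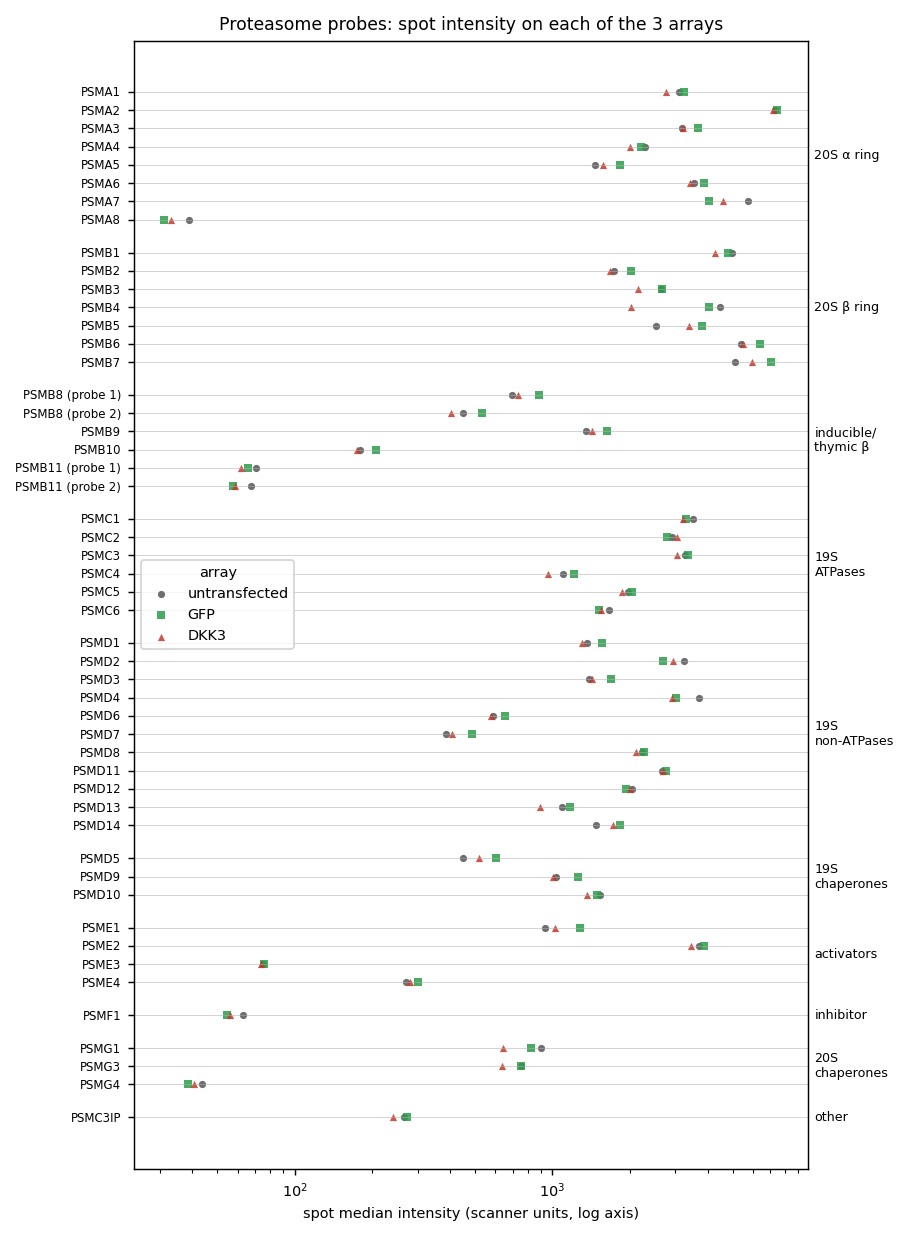
Spot median intensity (scanner units, log axis) of the 50 probes by class, with circles for the untransfected, squares for the GFP and triangles for the DKK3 array. The 3 symbols of a probe mostly lie close together, PSMB4 and PSMB5 are the most spread in ratio, and PSMA8 is at the left near the blanks.

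Set against the GFP array, the DKK3 array carried 3 proteasome probes that were at least 1.2-fold higher, namely PSMA7, PSMC2 and PSMD2, and 1 that was at least 1.2-fold lower, PSMB4. None reached 2-fold. Of all 17579 detected probes 2.25% were higher and 2.98% were lower by that measure, and 0.256% passed 2-fold in either direction. The 3 higher probes are 6.12% of the 49 detected proteasome probes and the lower one is 2.04%. Most proteasome probes are bright, and bright probes pass 1.2-fold more often. Among probes with a mean spot value of at least 500, 10.3% of the 39 proteasome probes and 12.7% of all 2653 did so, so the proteasome share was near that of other bright probes. Of the 49 probes 29 were above 0, or 59.2%, against 49.1% of all, and among the bright probes 64.1% against 49.9%. Averaged by gene, the median of the 47 detected symbols was 0.026, against 0.0003 over all genes. With median scaling in place of quantile normalization it was -0.048, against 0.029 over all probes, and without the first row of each block it was -0.0041, so its direction depends on these choices. Under median scaling PSMC2, at 0.25, and PSMD2, at 0.26, were just short of 1.2-fold. In bulk RNA, fewer cells of a type and less RNA per cell cannot be told apart, and neither can a small change in every cell and a larger one in the transfected cells.

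**Figure D2:**
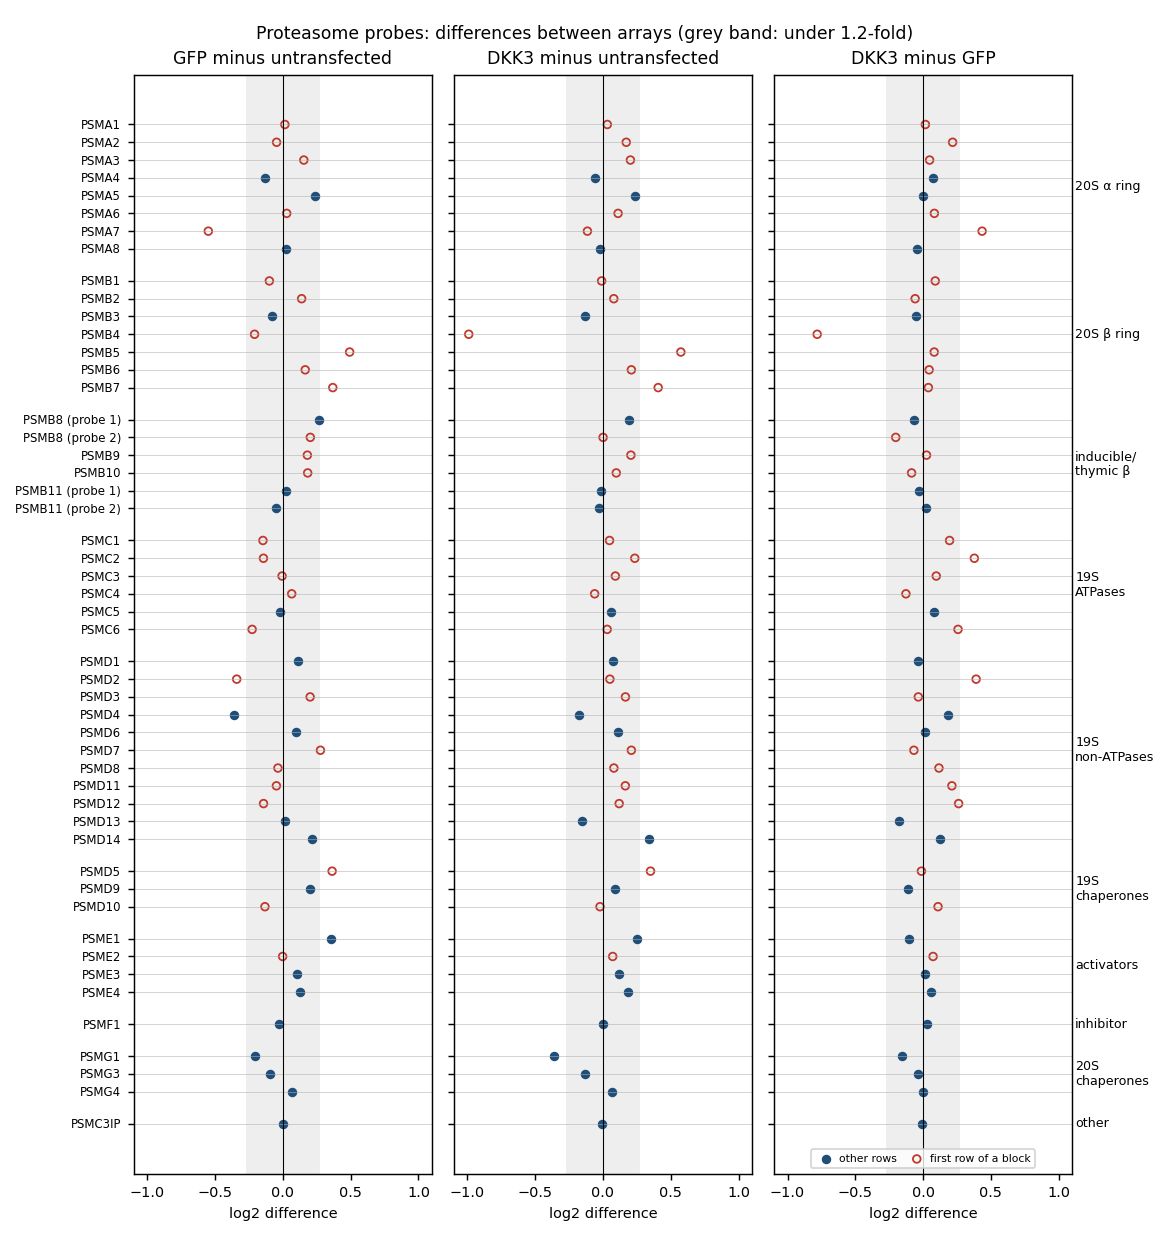
Normalized log2 differences of the 50 probes in the 3 comparisons, with the grey band marking changes under 1.2-fold and open circles marking spots printed in the first row of an array block. Most points lie inside the band, PSMB4 is the lowest point in both comparisons of the DKK3 array, and PSMA7 has opposite signs in GFP minus untransfected and DKK3 minus GFP.

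GFP minus untransfected addresses transfection of a plasmid without DKK3, and with 1 array each it cannot be told apart from a difference between cultures or arrays. Here 6 proteasome probes were at least 1.2-fold higher on the GFP array, those of PSMB5, PSMB7, PSMD5, PSMD7, PSME1 and 1 of the 2 probes of PSMB8. Another 3 were at least 1.2-fold lower, those of PSMA7, PSMD2 and PSMD4. They make 12.2% and 6.12% of the 49, against 3.75% higher and 3.43% lower among all 18075 detected probes and 0.254% past 2-fold, which no proteasome probe reached. Among the bright probes the shares past 1.2-fold were 20.5% of the proteasome probes and 18.6% of all. Above 0 were 27 probes, or 55.1%, against 48.3% of all, and the median over genes was 0.014. Among the bright probes 48.7% of the proteasome probes and 48.8% of all were above 0.

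DKK3 minus untransfected shares an array with each of the other comparisons and is therefore no independent reading. The probes of PSMB5, PSMB7, PSMD5 and PSMD14 were at least 1.2-fold higher (8.16%) and those of PSMB4 and PSMG1 at least 1.2-fold lower (4.08%), against 3.98% and 3.77% of all 18120 detected probes. Among the bright probes 15.4% of the proteasome probes and 19.3% of all passed 1.2-fold. Again no proteasome probe reached 2-fold, which 0.292% of all probes did. Above 0 were 34 probes, or 69.4%, against 47% of all, with a median over genes of 0.080. Among bright probes 71.8% of the proteasome probes and 47.2% of all were above 0. With median scaling the median over proteasome genes was 0.037 and that over all probes 0.020, a smaller gap than after quantile normalization. By order of the 3 quantile-normalized values of each probe, the untransfected array was the lowest for 23 of 49 proteasome probes (46.9%, against 32.3% of all detected probes), and the DKK3 array was the highest for 22 (44.9%, against 30.3%) and the lowest for 8 (16.3%, against 34.4%). Most of these differences were smaller than the 95th percentile of the gap between probes of a gene.

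**Figure D3:**
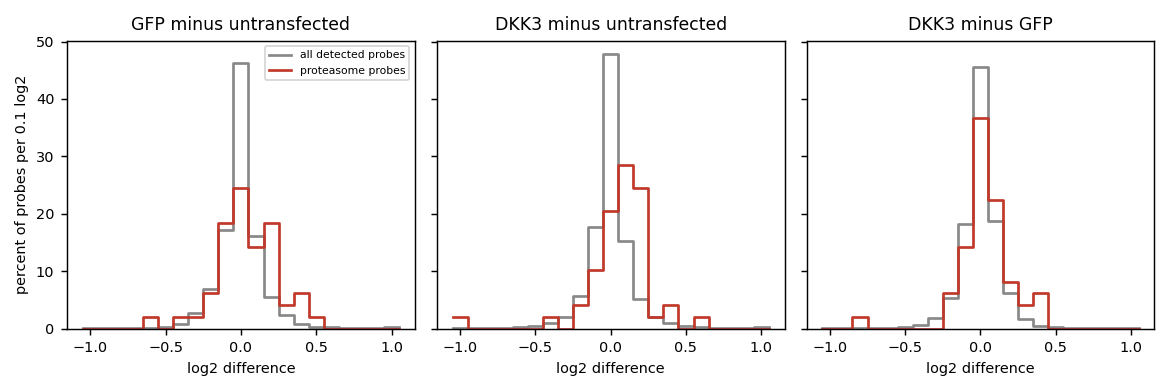
Percent of probes per bin of 0.1 log2 units in the 3 comparisons, for all detected probes (grey) and the 49 detected proteasome probes (red). In DKK3 minus untransfected the red outline sits to the right of the grey one, with 69.4% of the proteasome probes above 0, and single probes such as PSMB4 form the tails.

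The outer ring of the 20S core is built from PSMA1 to PSMA7. DKK3 minus GFP had a median of 0.073 over these 7 genes and ran from PSMA5 at -0.0019 to PSMA7 at 0.44. The PSMA7 spot read 5725 on the untransfected, 4045 on the GFP and 4594 on the DKK3 array. It was high on the untransfected array and low on the GFP array, with a GFP minus untransfected difference of -0.55, so the DKK3 array lay between the others. The comparisons share the GFP array, and the difference in each exceeded the 95th percentile of the gap between probes. PSMA5 read 1458, 1834 and 1567 in the same order, with a GFP minus untransfected difference of 0.24 that was the highest of the ring, and the DKK3 and GFP arrays were nearly equal. PSMA2 was 0.22 higher on the DKK3 than on the GFP array, and the other 4 members lay between 0.018 and 0.084.

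The constitutive beta ring, PSMB1 to PSMB7, holds the catalytic subunits PSMB5 (chymotrypsin-like), PSMB6 (caspase-like) and PSMB7 (trypsin-like) beside structural subunits. PSMB4, which takes no part in the cutting, was the proteasome probe with the largest difference in DKK3 minus GFP. Its spot read 4473 on the untransfected, 4053 on the GFP and 2012 on the DKK3 array, and in the authors' deposited table it stood at 2247, 1683 and 957. The DKK3 array was low and the other arrays were close to each other. The normalized differences were -0.78 for DKK3 minus GFP, -0.21 for GFP minus untransfected and -0.99 for DKK3 minus untransfected, the last just short of 2-fold at 0.503 of the untransfected level. The other 6 members ran from -0.058 to 0.090 in DKK3 minus GFP, with PSMB1 highest (4972, 4809 and 4291 on the untransfected, GFP and DKK3 arrays).

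The PSMB4 spot lies in the first row of block 22 of the array, where neighbouring spots of unrelated genes were also lower on the DKK3 array. Its 10 nearest gene spots had a median DKK3 minus GFP difference of -0.27 and a lowest value of -1.21. The 80 detected probes of that row had a median of -0.14, and 33.8% of them passed 1.2-fold. With the medians of blocks and rows subtracted PSMB4 was at -0.64, and with the median of its 10 nearest gene spots subtracted it was at -0.51. Over the settings that keep this spot its DKK3 minus GFP difference ranged from -0.88 to -0.51, and it has no value in the settings that leave out blocks 22 to 24 or first rows. What share of the difference the place on the array makes was not tested further, and no other probe for PSMB4 was on the array.

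**Figure D4:**
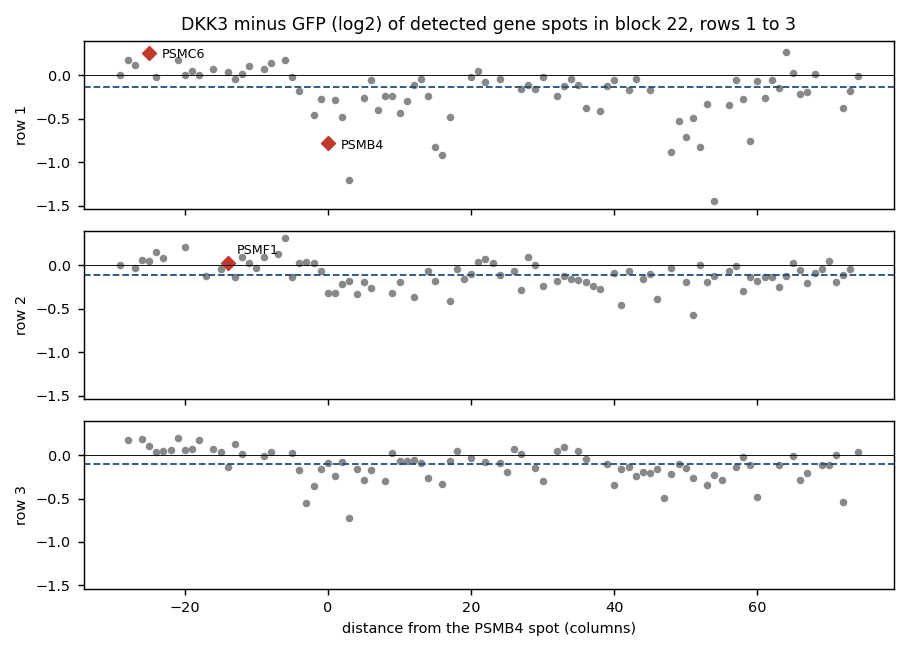
DKK3 minus GFP (log2) of each detected gene spot in rows 1 to 3 of block 22, against distance from the PSMB4 spot in columns, with proteasome spots as red diamonds and dashed lines at the row medians of -0.14, -0.11 and -0.10. PSMB4 at -0.78 lies among spots of other genes that are also below 0, some of them lower, while PSMC6, 25 columns to its left, is at 0.26.

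A place on the array is shared by many of these probes. Of the 50 probes 28 (56.0%) lie in the first row of a block, against 10.2% of all gene probes, and all 28 lie in even-numbered blocks. First-row probes passed 1.2-fold more often than others over the whole array, 10.5% against 4.61% in DKK3 minus GFP, 13.7% against 6.42% in GFP minus untransfected and 15.3% against 6.87% in DKK3 minus untransfected. The proteasome probes past 1.2-fold lay in a first row in 4 of 4, 6 of 9 and 4 of 6 cases in that order. Among the first-row proteasome probes the median was 0.078 in DKK3 minus GFP, 0.0060 in GFP minus untransfected and 0.095 in DKK3 minus untransfected, and among the 21 others it was -0.0035, 0.022 and 0.058.

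The catalytic constitutive subunits were compared with the inducible subunits that replace them. The PSMB5 spot read 2520 on the untransfected, 3797 on the GFP and 3380 on the DKK3 array. It was low on the untransfected array and similar on the transfected ones, with differences of 0.49 for GFP and 0.57 for DKK3 minus untransfected and 0.082 for DKK3 minus GFP. It lies in the first row of block 24, where its 10 nearest gene spots had a median GFP minus untransfected difference of 0.21, and with that subtracted PSMB5 was at 0.28. PSMB7 read 5108, 7024 and 5972 on the untransfected, GFP and DKK3 arrays and was likewise lowest on the untransfected array, with 0.37 for GFP and 0.41 for DKK3 minus untransfected. PSMB6 read 5402, 6414 and 5484, with 0.16 and 0.21, both below 1.2-fold.

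The inducible PSMB8, which takes the place of PSMB5, was measured by 2 probes. The first read 696.5 on the untransfected, 889.1 on the GFP and 736.7 on the DKK3 array, and the second 447.6, 533.6 and 403.7. Both had their highest value on the GFP array, with GFP minus untransfected at 0.26 and 0.20 and DKK3 minus GFP at -0.069 and -0.20. PSMB9, which takes the place of PSMB6, read 1349, 1632 and 1428 on the untransfected, GFP and DKK3 arrays, with 0.18 for GFP minus untransfected and 0.026 for DKK3 minus GFP. PSMB10, which takes the place of PSMB7, read 178.8, 206.0 and 173.5, with 0.18 and -0.084. All 3 inducible subunits were thus higher on the GFP than on the untransfected array by less than the 95th percentile of the gap between probes of a gene.

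Uncorrected for place on the array, no inducible subunit's difference exceeded that of its constitutive partner by more than 0.016 in any comparison. The GFP minus untransfected difference of PSMB8 less that of PSMB5 was -0.26, that of PSMB10 less that of PSMB7 was -0.19, and that of PSMB9 less that of PSMB6 was 0.016. For DKK3 minus GFP the same subtractions gave -0.22, -0.12 and -0.019. The surroundings of the spots also differed between partners. In GFP minus untransfected the 10 nearest gene spots had medians of 0.21 for PSMB5, 0.18 for PSMB6 and 0.073 for PSMB7. These medians were -0.0089 and 0.050 for the PSMB8 probes, 0.012 for PSMB9 and -0.043 for PSMB10. What share of the pair differences the place makes was not tested. The thymic subunit PSMB11, which replaces PSMB5 in thymic cortical epithelium, read between 57.7 and 70.9 on its 2 probes, near the detection limits, with differences between -0.051 and 0.024.

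The PA28 activator caps the 20S core without ATP and works with the immunoproteasome. Its PSME1 chain read 935.9 on the untransfected, 1279 on the GFP and 1019 on the DKK3 array, highest on the GFP array, with 0.36 for GFP minus untransfected and -0.11 for DKK3 minus GFP. Its partner chain PSME2 read 3717, 3889 and 3443 on the untransfected, GFP and DKK3 arrays, and the normalized values were nearly level, at -0.0023 and 0.074. The inducible subunits and PA28 together, 5 genes, had a median of 0.18 in GFP minus untransfected with 4 above 0, -0.084 in DKK3 minus GFP with 2 above 0, and 0.098 in DKK3 minus untransfected with all 5 above 0. All detected genes had medians of -0.0046, 0.0003 and -0.0049 in that order, and 47.3%, 50.2% and 47.1% of them were above 0. The other activators, nuclear PSME3 and PSME4 (PA200), lay between 0.012 and 0.18 in the 3 comparisons. The PSME3 spot was dim, at 73.6 to 75.7.

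**Figure D5:**
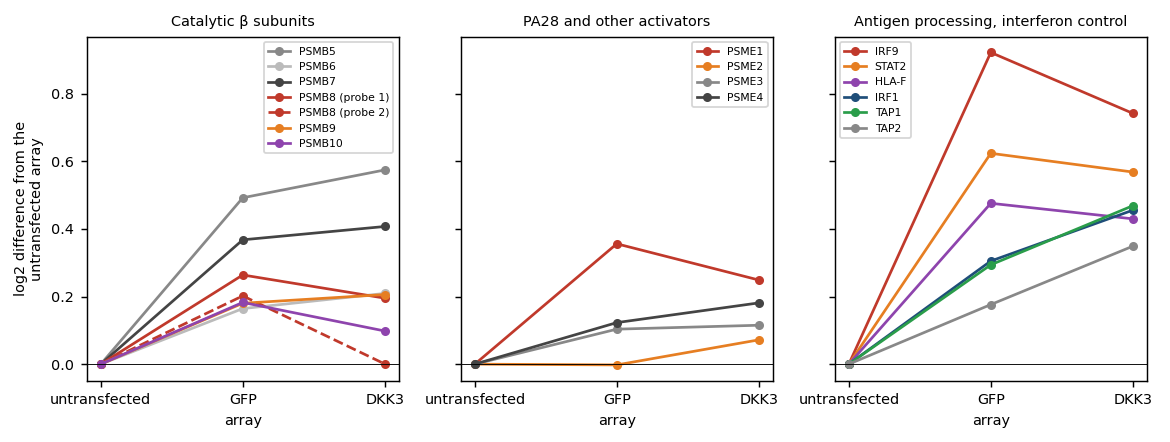
Normalized log2 difference of each transfected culture's array from the untransfected one for the catalytic beta subunits, the activators and genes of antigen processing or its interferon control. PSMB5 and PSMB7 lie above their inducible counterparts, PSME1 lies above PSME2, and IRF9 and STAT2 have the highest values at 0.92 and 0.62 on the GFP array.

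Genes of antigen processing and of its interferon control were read beside the immunoproteasome genes. Of 16 genes of antigen processing and its interferon control, 12 had a probe and all 12 were detected. In GFP minus untransfected 9 of them were above 0, 6 were at least 1.2-fold higher, 0 were at least 1.2-fold lower, and the median was 0.24. Among all detected probes 48.3% were above 0, 3.75% were at least 1.2-fold higher and 3.43% lower. Below 0 were TAPBP at -0.16, ERAP1 at -0.23 and the probes of ERAP2 at -0.18 and -0.21, and B2M was at 0.038. IRF9 and STAT2, subunits of the factor that carries the type I interferon signal, were at 0.92 and 0.62, and HLA-F, a nonclassical class I molecule, at 0.48. The IRF9 spot read 71.7 on the untransfected, 148.5 on the GFP and 118.4 on the DKK3 array, so both transfected arrays lay above the untransfected one. IRF9 is printed in block 23, while STAT2 and HLA-F lie outside blocks 22 to 24 and outside first rows. TAP1, whose start faces that of PSMB9, read 448, 575 and 568.5, with 0.29 for GFP and 0.47 for DKK3 minus untransfected, against 0.18 and 0.21 for PSMB9. In DKK3 minus GFP the list was split, with 6 of 12 above 0, against 49.1% of all detected probes. Its median was 0.031 and no member passed 1.2-fold. Its largest values were B2M, the class I light chain, at 0.20, the peptide-trimming ERAP1 at 0.20, and IRF9 at -0.18. In DKK3 minus untransfected 9 were above 0, with a median of 0.30 and 6 at least 1.2-fold higher. Of all detected probes 47% were above 0 and 3.98% at least 1.2-fold higher.

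Markers of leukocytes, which carry the immunoproteasome without interferon, were read beside these values. The undetected PTPRC read 35.8, 26.3 and 32.4 on the untransfected, GFP and DKK3 arrays, below the detection limit on each. The summed blank-corrected level of the list was 771.2 on the untransfected, 895.5 on the GFP and 782.7 on the DKK3 array. CD68, a lysosomal protein that is not confined to leukocytes, read 277.2, 350.2 and 324.3 and was 0.29 higher on the GFP than on the untransfected array. CD79A read 322.7, 347.3 and 299.8 in the same order, and LCP1 read 207.4, 199.1 and 189.1. Both were detected on all 3 arrays. Fibroblast markers were detected for 2 of 6 genes, with sums from 153.4 to 184.6, and skeletal muscle markers for 5 or 6 of 6, with sums from 131.2 to 165.7. The squamous list summed to between 38120 and 48420.

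The ATPase ring of the 19S particle, PSMC1 to PSMC6, unfolds substrates and opens the alpha ring. As a class it had the highest DKK3 minus GFP median, 0.15, with 5 of 6 genes above 0, and a GFP minus untransfected median of -0.082 with 1 of 6 above 0. Of all detected genes 50.2% and 47.3% were above 0 in these comparisons. The GFP array, which both comparisons share, was the lowest of the 3 normalized values for 5 of the 6, and the DKK3 array the highest for 5. Over all detected probes the GFP array was lowest for 33.3% and the DKK3 array highest for 30.3%. PSMC2 read 2914 on the untransfected, 2788 on the GFP and 3047 on the DKK3 array, with 0.38 for DKK3 minus GFP and -0.14 for GFP minus untransfected. PSMC6 read 1656, 1509 and 1543, with 0.26 and -0.23, and was low on both transfected arrays before normalization. PSMC4 went against the others, at 1098, 1212 and 960.1, with -0.13 and 0.065. Only PSMC2 exceeded the 95th percentile of the gap between probes, and 5 of the 6 spots lie in a first row. With median scaling PSMC3 and PSMC5 also fell below 0 in DKK3 minus GFP, at -0.0069 and -0.0059. The median of the whole 19S particle was then 0.020, against 0.029 over all probes.

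The 11 other 19S subunits had medians of 0.12 in DKK3 minus GFP with 7 above 0, 0.017 in GFP minus untransfected with 6 above 0, and 0.11 in DKK3 minus untransfected with 9 above 0. Of all detected genes 50.2%, 47.3% and 47.1% were above 0 in the same order. PSMD2, a large scaffold that also holds ubiquitin-binding shuttle proteins, read 3252 on the untransfected, 2680 on the GFP and 2941 on the DKK3 array. It was lowest on the GFP array, with 0.39 for DKK3 minus GFP, -0.34 for GFP minus untransfected and 0.051 for DKK3 minus untransfected. PSMD4, a receptor for ubiquitin chains, read 3720, 3028 and 2903, with -0.36 for GFP minus untransfected and 0.18 for DKK3 minus GFP, so both transfected arrays were low. PSMD14, the enzyme that removes ubiquitin from the substrate, read 1473, 1825 and 1716 and was higher on both transfected arrays, by 0.21 for GFP and 0.34 for DKK3. PSMD7, the inactive partner of PSMD14, read 387.5, 489.1 and 405.8, with 0.28 for GFP minus untransfected and -0.068 for DKK3 minus GFP. PSMD13, a structural subunit of the lid, had the lowest DKK3 minus GFP value of the class, -0.17, at 1092, 1171 and 896.3.

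No assembly chaperone passed 1.2-fold in DKK3 minus GFP. PSMD5, PSMD9 and PSMD10 escort the 19S ATPases during assembly. PSMD5 read 448.6 on the untransfected, 605.1 on the GFP and 520.2 on the DKK3 array, with 0.36 for GFP and 0.35 for DKK3 minus untransfected and -0.012 for DKK3 minus GFP. PSMD9 read 1036, 1260 and 1006, with 0.20 for GFP minus untransfected and -0.11 for DKK3 minus GFP, while PSMD10 (gankyrin) read 1530, 1484 and 1366, with -0.13 and 0.11. Of the chaperones of the 20S core, PSMG1 read 898.9 on the untransfected, 826.9 on the GFP and 641.5 on the DKK3 array. It was lowest on the DKK3 array, with -0.16 for DKK3 minus GFP, -0.21 for GFP minus untransfected and -0.36 for DKK3 minus untransfected. PSMG3 was lower in each comparison by smaller amounts, at -0.038, -0.092 and -0.13, and PSMG4 read 38.4 to 43.7, close to the detection limits. PSMF1, an inhibitor of the 20S core in the test tube, read 54.6 to 63.1 with differences between -0.027 and 0.026, and the non-subunit PSMC3IP stayed between -0.0084 and 0.0022.

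Partners of the proteasome were read as a list of 25 genes, among them shuttle factors, associated enzymes, ubiquitin genes and NFE2L1. All 20 genes with a probe were detected. In DKK3 minus GFP 14 were above 0, with a median of 0.091, 2 at least 1.2-fold higher and 0 lower. Of all detected genes 50.2% were above 0, with a median of 0.0003. Of all detected probes 2.25% were at least 1.2-fold higher and 2.98% lower. The shuttle factor UBQLN1 was at 0.41 and the unfoldase VCP, which hands substrates to the proteasome, at 0.35. Both spots lie in block 16, which also holds PSMA7 and PSMC2 in its first row. What share of these differences the block makes was not tested. In GFP minus untransfected 5 were above 0, with a median of -0.084, 1 at least 1.2-fold higher and 2 lower. Here 47.3% of all detected genes were above 0, with a median of -0.0046. The shares of all detected probes were 3.75% higher and 3.43% lower. The shuttle factor RAD23B was at 0.56, from the same first row of block 24 as PSMB5, UBQLN1 was at -0.50, and the ubiquitin ligase UBE3A was at -0.31. These comparisons share the GFP array, on which UBQLN1 read 349.2 against 492.2 on the untransfected and 414.1 on the DKK3 array, a pattern also seen for PSMA7 and PSMD2. In DKK3 minus untransfected 13 were above 0, with a median of 0.0098, against 47.1% and a median of -0.0049 for all detected genes. POMP, which matures the 20S core, was at 0.13 in DKK3 minus GFP and -0.072 in GFP minus untransfected. The 2 probes of NFE2L1 disagreed, at 0.27 and -0.014 in DKK3 minus GFP, and the former is a dim spot in a first row.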

How the data were processed

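RNA of 3 HSC-3 cultures was hybridised to one-colour (Cy5) oligonucleotide arrays, 1 per condition. Per the file headers, the deposited spot intensity is a median that combines scans at 3 gains through fitted straight lines, with software not given in the sources used here. The column headed as a background followed the spots' own intensity (correlation of log2 values from 0.993 to 0.998) and was not subtracted. The authors also deposited a table of linear intensity for the whole series, used as an alternative.

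Spot medians were corrected with normexp (offset 50), controls, blanks and 6 probes marked faulty were dropped, and the remaining 24454 were quantile-normalized and put on a log2 scale (limma 3.58.1 under R 4.3.3; Python 3.11.15). The normalization was also run on simulated arrays with independent noise. These held no effect of place on the array, so that run cannot speak to such effects. By its form the offset shrinks differences, most of all those of dim probes. Detection was above the mean plus 2 SD of 2674 blanks on at least 1 of the arrays compared (17226 to 18012 probes per array). Having 1 array per condition limits the precision throughout.

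Genes were named from the platform annotation (20231 probes with 1 symbol, 0 with several, 4223 with none), and all 48 proteasome symbols were current in RefSeq. Probes of a gene were averaged for class medians. With 1 array a group, differences were described by rules of size (1.2-fold and 2-fold) beside the share of all probes. Named were the inducible subunits, PA28, their counterparts, the members at either end of each class, and up to 3 genes of each list with the largest differences; further genes and other members given with values were chosen after their values were seen. The probe set and all lists were chosen with earlier results of these data known. The alternatives changed the background correction, offset, scaling, detection filter, averaging, source table and place of spots. Of them 14 were planned, and 2 on the place of spots were added after the data were seen.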

Additional observations from a re-analysis of the deposited data

How the results depend on the processing

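Over 16 alternative settings, none reversed the sign of a proteasome probe that stood at 1.2-fold or more. Class medians are small, and several changed sign or size with the scaling. With median scaling in place of quantile normalization, the DKK3 minus GFP median of all proteasome genes was -0.048, against 0.029 over all probes. It was -0.084 for the constitutive 20S core and 0.020 for the 19S particle. The DKK3 minus untransfected median of all proteasome genes was 0.037, against 0.020 over all probes. Over all settings the median of all proteasome genes ran from -0.048 to 0.044 in DKK3 minus GFP, from -0.19 to 0.042 in GFP minus untransfected and from -0.11 to 0.14 in DKK3 minus untransfected. The authors' deposited table as it stands is shifted as a whole, with medians over all probes of -0.22 in GFP minus untransfected and -0.25 in DKK3 minus untransfected. Read that way, GFP minus untransfected gave -0.19 for all proteasome genes, 0.059 for the inducible subunits with PA28, -0.18 for the constitutive 20S core and -0.22 for the 19S particle, with 16 probes past 1.2-fold. DKK3 minus untransfected gave -0.11, -0.082, -0.11 and -0.14 in the same order, with 10 probes. The shift of all probes lies near the 1.2-fold limit of 0.263 log2, and the share of all probes past it is not given here. Both counts therefore cannot be read apart from the shift. With that table centred on its median, the inducible subunits with PA28 were at 0.28 in GFP minus untransfected, and 12 probes passed 1.2-fold in DKK3 minus untransfected. Without blocks 22 to 24, 2 of 40 proteasome probes passed in DKK3 minus GFP and 3 of 40 in DKK3 minus untransfected. Among all probes of the remaining blocks 3.94% and 5.86% passed. With block and row medians subtracted, 5 passed in GFP minus untransfected. For this setting and the centred table the share of all probes past 1.2-fold is not given here, so those counts stand alone. Without the first row of each block (added after the data were seen), 21 detected proteasome probes were left. Of them 0, 3 and 2 passed in DKK3 minus GFP, GFP minus untransfected and DKK3 minus untransfected. Among all probes of the other rows 4.61%, 6.42% and 6.87% passed in that order. Of the inducible subunits with PA28 this setting kept only PSME1 and the brighter probe of PSMB8. Their medians were 0.31 in GFP minus and 0.22 in DKK3 minus untransfected. Of the 20S core it kept only PSMA4, PSMA5 and PSMB3, with medians of -0.082 and -0.057. These medians rest on fewer members than those of the full groups and cannot be compared with them. Taking the brightest probe of PSMB8 gave 0.20 for the inducible subunits with PA28 in DKK3 minus untransfected. PSMB4 passed 2-fold in DKK3 minus untransfected, so that the count was 1, with blanks subtracted, with an offset of 16, with median scaling and in the deposited table as it stands. No paired analysis was possible because each group holds 1 array. Signal over the blanks limits PSMA8, PSMB11, PSME3, PSMF1 and PSMG4.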
